A study of Homo sapiens with 14 samples.

Results

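The 44 genes described here code for 2 DNA repair pathways, base excision repair (22 genes, from UNG to TDP1) and nucleotide excision repair (22 genes, from XPA to XAB2). They were chosen by name with earlier results of these data known, so their shares are not those of an independently chosen set. Every interval listed under 1 of these symbols was taken from 6 lists of STAT5 and BCL6 ChIP-seq intervals near gene starts. The 4 separate lists hold 26333 gene symbols in all, and 41 of the 44 genes are among them. The cells were DLD-1, an established human colorectal adenocarcinoma line. STAT5 was precipitated with antibody C-17 after transfection with pEGFP-C1199Tiam1, which codes for a fragment of the RAC exchange factor TIAM1, plus vehicle (activator, 2 libraries). BCL6 was precipitated with antibody N-3 after the same plasmid together with EHT 1864, which inhibits RAC, at 20 microM over 16 h (inhibitor, 3 libraries). Both antibodies were also used after transfection with the empty vector (control, 2 STAT5 and 2 BCL6 libraries). All cells were transfected, and chromatin was taken 20 h later. A further 5 libraries (3 with BCL6 after activation, 2 with STAT5 after inhibition) were not analysed here. The labels do not say whether libraries of a group came from separate cultures, so their spread may be technical.

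Base excision repair removes small base lesions: a glycosylase cuts out the damaged base, an endonuclease opens the strand at the bare sugar, and a polymerase and a ligase close the gap with help from the scaffold XRCC1 and the break sensors PARP1 and PARP2. Nucleotide excision repair removes bulky lesions such as those made by ultraviolet light: the lesion is found either by XPC and its partners or by a stalled RNA polymerase, TFIIH opens the helix, and nucleases on either side release the damaged stretch. TFIIH is also a general transcription factor. STAT5 is known mainly as an activator of transcription and BCL6 as a repressor, and both recognise similar DNA sequences.

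Each interval has 1 whole-number value per library, whose quantity the headers do not name and which was read as a count of reads. The lowest value above 0 is 2. Control lists include intervals seen in just 1 of their libraries, whereas treated lists include those seen in all of theirs. Numbers of genes in lists of different kinds are therefore not levels of binding to be set against each other. No activator STAT5 interval shares a base with a listed control STAT5 peak, so places under such peaks are not represented in the activator list. A gene missing from that list is therefore not shown to lack STAT5 after activation. Read depth was not stated for any library. The values of a library summed to 37629 and 44216 in the activator STAT5 list, 4390 to 5544 in the inhibitor BCL6 list, 81105 and 100945 for control STAT5, and 84510 and 97187 for control BCL6. Of the values above 0, 53.2% to 74.0% were 2. A value of 2 has an exact 95% Poisson interval of 0.242 to 7.22 and a value of 8 one of 3.45 to 15.8, which cover counting error only. Positions are given in bp from the deposited Ensembl gene start along the gene's strand, negative upstream, for both edges of an interval on GRCh37. The lists reach from 3000 bp upstream to 1000 bp downstream, and exons, introns and UTRs were not annotated here. No test across genes or samples was made: genes are not replicates, and the lists hold no value for a gene in libraries where it was not listed. The difference between the 2 pathways was therefore not tested.

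After RAC1/PAK1 activation, STAT5 intervals were listed at 19 of the 44 genes (43.2%), among 24.7% of all protein-coding genes and 12.1% of all symbols of the reference. With a value of at least 3 asked of both libraries, 0 of the 44 were left, beside 5.01% of protein-coding genes, and with a value of at least 3 asked of either library, 13 of the 44 (29.5%), beside 17.2%. The 19 genes were 11 of the 22 base excision genes and 8 of the 22 nucleotide excision genes (36.4%). In base excision repair these were the glycosylases UNG, TDG, OGG1, NEIL3 and MPG, the ligase LIG3, the scaffold XRCC1, the sensor PARP1 and all 3 end-processing enzymes, APTX, FEN1 and TDP1. In nucleotide excision repair they were all 3 subunits of the TFIIH kinase module (CDK7, CCNH and MNAT1), the TFIIH subunits ERCC2 and GTF2H3, and ERCC1, ERCC8 and RAD23B. The 2 abasic-site endonucleases APEX1 and APEX2 were not listed there, nor were POLB, LIG1, PARP2, XPA, XPC, ERCC3, ERCC4, ERCC5, ERCC6, DDB1, DDB2, GTF2H1, GTF2H4, XAB2 or the 6 other glycosylases. The shares of protein-coding genes include genes with no interval in any list; among the 16287 with an interval in at least 1 separate list the activator STAT5 share was 30.4%.

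**Figure D1:**
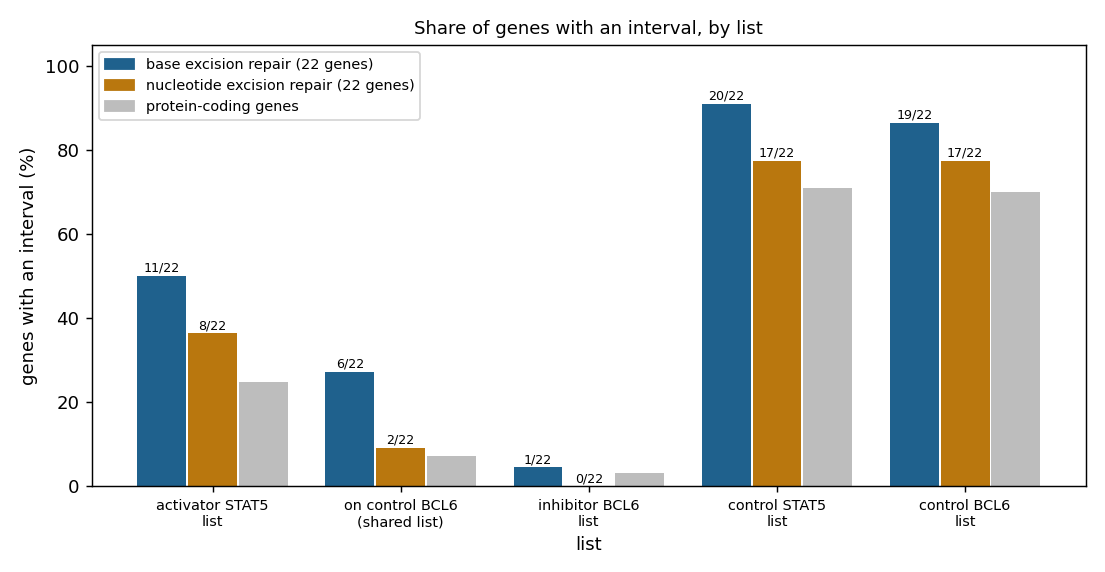
Share of genes (y axis, %) with at least 1 interval in each list (x axis), for base excision repair, nucleotide excision repair and all protein-coding genes of the reference. The counts above the bars are members listed of 22; in the activator STAT5 list they are 11 and 8, beside 24.7% of protein-coding genes.

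In the control lists both pathways were widely covered, as were protein-coding genes in general. The control STAT5 list held 20 base excision and 17 nucleotide excision genes (90.9% and 77.3%), where 70.9% of protein-coding genes were present. The control BCL6 list held 19 and 17 (86.4% and 77.3%), where the share was 70.0%. Among protein-coding genes with an interval in at least 1 separate list the shares were 87.3% for control STAT5 and 86.2% for control BCL6. The nucleotide excision shares, by contrast, also count genes with no interval in any list. In the inhibitor BCL6 list TDG was the sole member (1 of 44, 2.27%, beside 3.14% of protein-coding genes), and the list of inhibitor BCL6 intervals on control STAT5 peaks held 0 of the 44, beside 0.813%. CETN2, GTF2H2 and GTF2H5, all of nucleotide excision repair, had no interval under their symbol in any list. Of protein-coding genes 18.8% were in the same position, a share that includes any gene listed only under an older symbol.

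**Figure D2:**
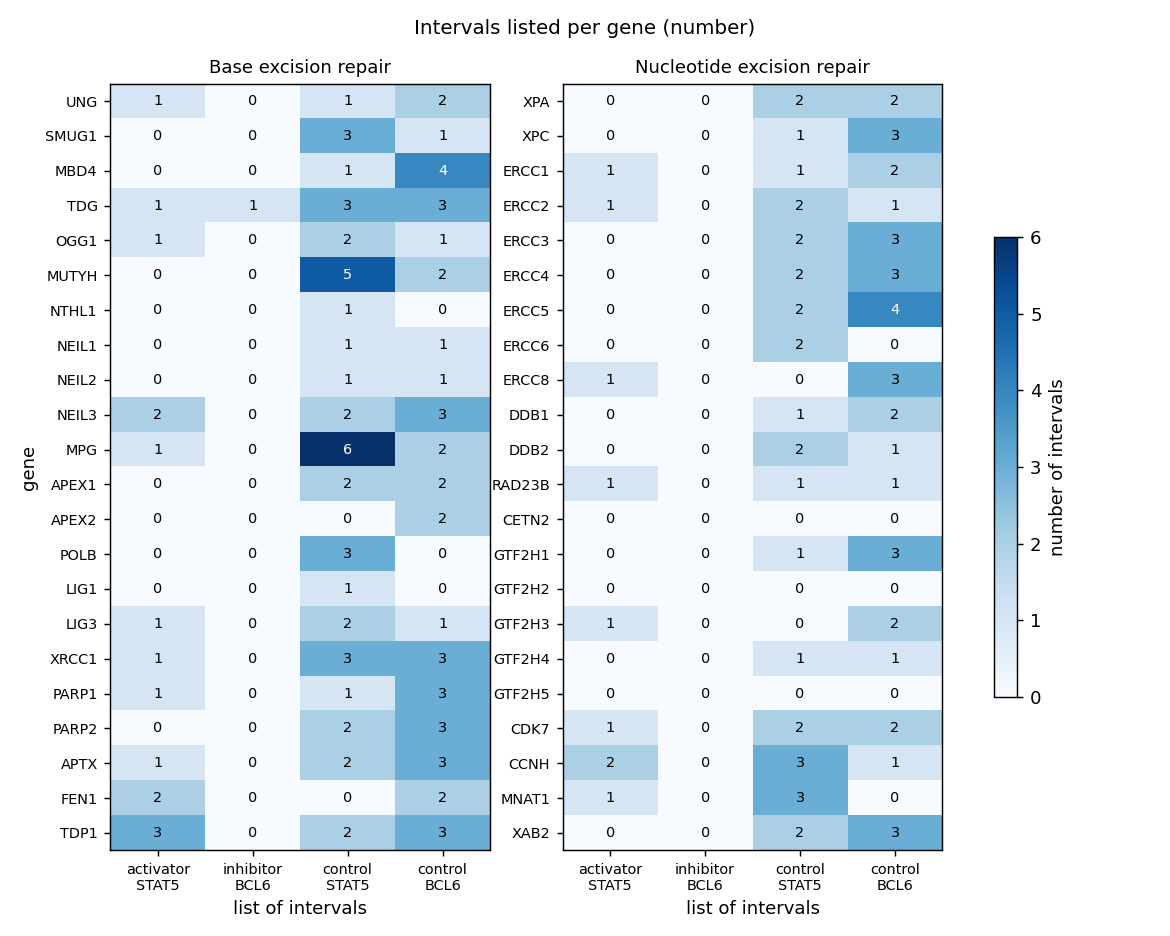
Number of intervals listed for each of the 44 genes (rows) in the 4 separate lists (columns), with base excision repair on the left and nucleotide excision repair on the right. TDP1 has 3 activator STAT5 intervals, MPG has 6 control STAT5 intervals, TDG alone has an inhibitor BCL6 interval, and CETN2, GTF2H2 and GTF2H5 have none.

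The 19 genes carried 24 activator STAT5 intervals, 15 in base excision and 9 in nucleotide excision repair. TDP1 had 3 of them and NEIL3, FEN1 and CCNH had 2 each, so 4 of 19 genes (21.1%) had more than 1, beside 22.5% of the protein-coding genes in this list. Values were low. At every one of the 24 intervals at least 1 library had the lowest value of 2, and 0 of 24 had 3 or more in both libraries, beside 16.9% of the whole list. Both values were 2 at 11 intervals (45.8%, beside 35.3% of the list). A value of 5 or more was reached at 3 intervals (12.5%, beside 20.4%), at XRCC1, APTX and GTF2H3, each time in the second library alone. For each of these 3 the Poisson intervals of the first and the second library overlapped.

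**Figure D3:**
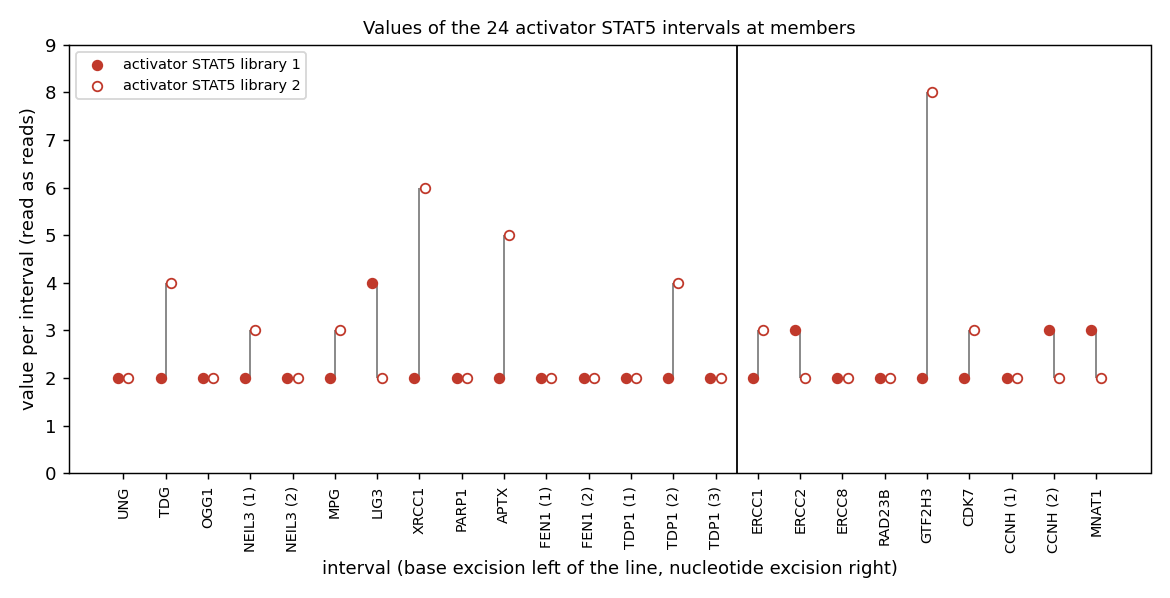
Value of each of the 24 activator STAT5 intervals (x axis) in the first library (filled) and the second library (open), read as a number of reads; numbers in brackets order the intervals of 1 gene from upstream to downstream. The first library stays between 2 and 4, and the second reaches 8 at GTF2H3, 6 at XRCC1 and 5 at APTX.

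Among the glycosylases, TDG was the member listed in all 4 separate lists. It removes thymine or uracil opposite guanine and also acts in active DNA demethylation. Its activator STAT5 interval lay at chromosome 12, 104358816 to 104359094 (-778 to -500 bp), with values of 2 and 4. It shared 162 of its 279 bp with a control BCL6 peak at 104358933 to 104359265 that had values of 3 and 0. The inhibitor BCL6 interval at 104359266 to 104359332 (-328 to -262 bp) had values of 2, 2 and 2 and began at the base after that same control BCL6 peak ended. The activator STAT5 interval thus overlapped this control BCL6 peak from its upstream side, the inhibitor BCL6 interval adjoined its downstream end, and 171 bp lay between them. Contact with a control BCL6 peak was seen at 14.3% of all inhibitor BCL6 intervals. Control STAT5 peaks at TDG lay farther off: 209 bp and 614 bp from the activator interval, and 376 bp from the inhibitor interval on its nearer side. An interval in both treated lists was found at 1.21% of protein-coding genes.

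UNG, which removes uracil, had an activator STAT5 interval just inside the gene, at chromosome 12, 109535472 to 109535553 (56 to 137 bp), with values of 2 and 2. The nearest control STAT5 peak was 625 bp away. OGG1, which removes oxidised guanine, had an interval of 40 bp with values of 2 and 2 at chromosome 3, 9789947 to 9789986 (-1682 to -1643 bp), between a control BCL6 peak and the gene start. NEIL3, which acts on oxidised bases, had values of 2 and 3 at chromosome 4, 178229745 to 178230017 (-1247 to -975 bp). Its second interval, 269 bp farther along at 178230287 to 178230318, had 2 and 2, and all its 32 bp lay inside a control BCL6 peak with values of 2 and 0. Neither NEIL3 interval touched a control STAT5 peak. MPG, which removes alkylated purines, had values of 2 and 3 at chromosome 16, 126562 to 126664 (-445 to -343 bp). That interval filled the whole gap between control STAT5 peaks at 126236 to 126561 (values 0 and 2) and 126665 to 126963 (2 and 0). MPG also had the most control STAT5 intervals of the 44 genes, 6.

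The remaining glycosylases SMUG1, MBD4, MUTYH, NTHL1, NEIL1 and NEIL2 had control intervals only. MUTYH, which removes adenine paired with oxidised guanine, had 5 control STAT5 intervals; the one over its gene start, at chromosome 1, 45805912 to 45806361 (-219 to 230 bp), had values of 3 and 2. Control STAT5 intervals were listed for all 11 glycosylases, beside 70.9% of protein-coding genes. Control BCL6 intervals were listed for 10, NTHL1 being the exception, beside 70.0%. Among protein-coding genes with an interval in at least 1 separate list these shares were 87.3% and 86.2%.

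XRCC1, the scaffold that holds the ligation complex together, had an activator STAT5 interval at chromosome 19, 44080795 to 44080886 (-1156 to -1065 bp) with values of 2 and 6. All its 92 bp lay inside a control BCL6 peak with values of 0 and 2, and it ended at the base before a control STAT5 peak at 44080887 to 44081150 with values of 2 and 0. LIG3, the ligase that XRCC1 binds, had values of 4 and 2 at chromosome 17, 33306922 to 33307181 (-621 to -362 bp). It shared 59 of 260 bp with a control BCL6 peak of values 2 and 0 and lay 330 bp from a control STAT5 peak with values in both libraries (2 and 4). LIG3 was the sole base excision member with a higher value in the first activator library. PARP1, which senses strand breaks, had an interval of only 2 bp, at chromosome 1, 226595554 to 226595555 (221 to 222 bp), with values of 2 and 2. Its nearest listed control BCL6 peak was 589 bp away and its nearest listed control STAT5 peak 3150 bp away.

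All 3 end-processing enzymes were in the activator STAT5 list, beside 24.7% of protein-coding genes, while the 2 abasic-site endonucleases were not. APTX, which removes the adenylate left by an aborted ligation, had values of 2 and 5 at chromosome 9, 33024170 to 33024247 (919 to 996 bp). Like the MPG interval, it filled the gap between 2 control STAT5 peaks, 33023788 to 33024169 (4 and 0) and 33024248 to 33024766 (0 and 5). FEN1, the flap nuclease, had values of 2 and 2 at chromosome 11, 61559243 to 61559318 (-908 to -833 bp), and again 2 and 2 at 61559463 to 61559570 (-688 to -581 bp). The second of these shared 48 of 108 bp with a control BCL6 peak of values 0 and 2. No control STAT5 interval was listed at FEN1. TDP1, which frees DNA ends from trapped topoisomerase, had 2 and 2 at chromosome 14, 90421158 to 90421227 (-1089 to -1020 bp), directly after a control STAT5 peak of values 2 and 0. It had 2 and 4 at 90421270 to 90421362, 42 bp farther on, and 2 and 2 inside the gene at 90422895 to 90423148 (648 to 901 bp), where 171 of 254 bp lay on a control BCL6 peak of values 0 and 2.

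In nucleotide excision repair all 3 genes of the TFIIH kinase module, which also phosphorylates RNA polymerase II, were listed, beside 24.7% of protein-coding genes. Of the 7 other TFIIH genes 2 were listed. A group of 3 genes is small, and whether it differs from the rest was not tested. CDK7, its kinase, had the one activator STAT5 interval among the 24 that crossed a gene start, at chromosome 5, 68530620 to 68530775 (-81 to 74 bp), with values of 2 and 3. Start-crossing intervals made up 2.7% of activator STAT5 intervals paired with protein-coding genes. Its nearest control STAT5 peak was 325 bp away and its nearest control BCL6 peak 603 bp. CCNH, the cyclin of the module, had values of 2 and 2 at chromosome 5, 86710525 to 86710749 (-1913 to -1689 bp), and 3 and 2 at 86710138 to 86710336 (-1500 to -1302 bp). MNAT1, the assembly factor, had values of 3 and 2 over 20 bp at chromosome 14, 61199433 to 61199452 (-2048 to -2029 bp). In control cells MNAT1 had a STAT5 peak over its start (-399 to 290 bp) with values of 4 and 4, and it was the sole activator-listed member without a control BCL6 interval. None of the 4 activator intervals at these 3 genes touched a control STAT5 peak or overlapped a control BCL6 peak, as was true of 60.6% of the whole list.

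Because the CDK7 interval crosses the gene start, the RefSeq promoter window of CDK7 is shown (GRCh38.p14, chr5:69234636-69234935, plus strand, from 250 bases before to 50 bases after the RefSeq start). Capitals mark the bases from -81 onwards, the part that the interval's position covers if the RefSeq and the Ensembl start coincide. A further RefSeq start of CDK7 lies 91 bp upstream, so the covered part is approximate.
CDK7 promoter: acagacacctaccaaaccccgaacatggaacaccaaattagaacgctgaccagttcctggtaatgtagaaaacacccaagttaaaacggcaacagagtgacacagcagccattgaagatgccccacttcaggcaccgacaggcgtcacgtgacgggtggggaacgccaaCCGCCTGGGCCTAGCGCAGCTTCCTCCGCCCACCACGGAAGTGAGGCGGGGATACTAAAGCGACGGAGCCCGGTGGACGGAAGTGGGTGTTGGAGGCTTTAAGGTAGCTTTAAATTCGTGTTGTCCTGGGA
The window holds neither the STAT element TTCNNNGAA nor its BCL6 form TTCCTNGAA, searched on both strands; the BCL6 form is a subset of the STAT element.

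Over all members, 41 of 44 had a RefSeq window (all but SMUG1, NEIL2 and POLB), 54 windows in all. The STAT element was in 3 of the 54 (5.56%), at PARP2, DDB2 and GTF2H4. It was in 6.79% of the windows of protein-coding genes and 7.66% of the 35116 windows of all genes. The BCL6 form was in 1 of the 54 (1.85%), at DDB2, beside 1.3% of protein-coding windows and 1.56% of all windows. These 3 members had no treated interval; none of the 19 members with one had the element within its windows, which says nothing about the parts of their intervals that lie outside. The sites are shown with 15 bases on either side, the element in capitals, in the sense of the gene. They begin 154 bases (PARP2), 51 bases (DDB2) and 210 bases (GTF2H4) upstream of a RefSeq start on GRCh38.p14. The BCL6 form at DDB2 is read on the strand opposite to the one shown.
PARP2: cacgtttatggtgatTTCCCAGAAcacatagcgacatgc
DDB2: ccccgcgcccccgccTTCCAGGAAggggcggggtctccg
GTF2H4: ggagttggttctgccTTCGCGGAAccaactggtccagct
DDB2, the lesion-binding subunit of the ultraviolet damage sensor, was also the member where a control STAT5 peak (-12 to 308 bp) and a control BCL6 peak (0 to 294 bp) both covered the gene start. Each had a value of 2 in the second library alone, so this rests on 1 library of each antibody.

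Of the other TFIIH subunits, GTF2H3 had the highest single value of the 24 intervals, 2 and 8 at chromosome 12, 124118684 to 124118934 (303 to 553 bp), and no listed control STAT5 interval. ERCC2, the TFIIH helicase that opens DNA at the lesion, had 3 and 2 over 2 bp at chromosome 19, 45876174 to 45876175 (-2299 to -2298 bp), 17 bp from a control STAT5 peak. ERCC1, which forms the incision nuclease with ERCC4, had 2 and 3 at chromosome 19, 45926321 to 45926593 (584 to 856 bp), inside the gene. ERCC8, which recruits repair to stalled polymerase, had 2 and 2 at chromosome 5, 60241681 to 60241875 (-970 to -776 bp). Only 20 of its 195 bp lay on a control BCL6 peak, and that peak has values of 3 and 2 in the control BCL6 list but 0 and 2 in the list of shared intervals. RAD23B, the partner of XPC, had 2 and 2 over 23 bp at chromosome 9, 110044825 to 110044847 (-594 to -572 bp). This short interval lay wholly inside a control BCL6 peak of values 0 and 2 and began at the base after a control STAT5 peak of values 0 and 4. The damage finders XPC, DDB1 and DDB2 and the nucleases ERCC4 and ERCC5 had control intervals only.

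**Figure D4:**
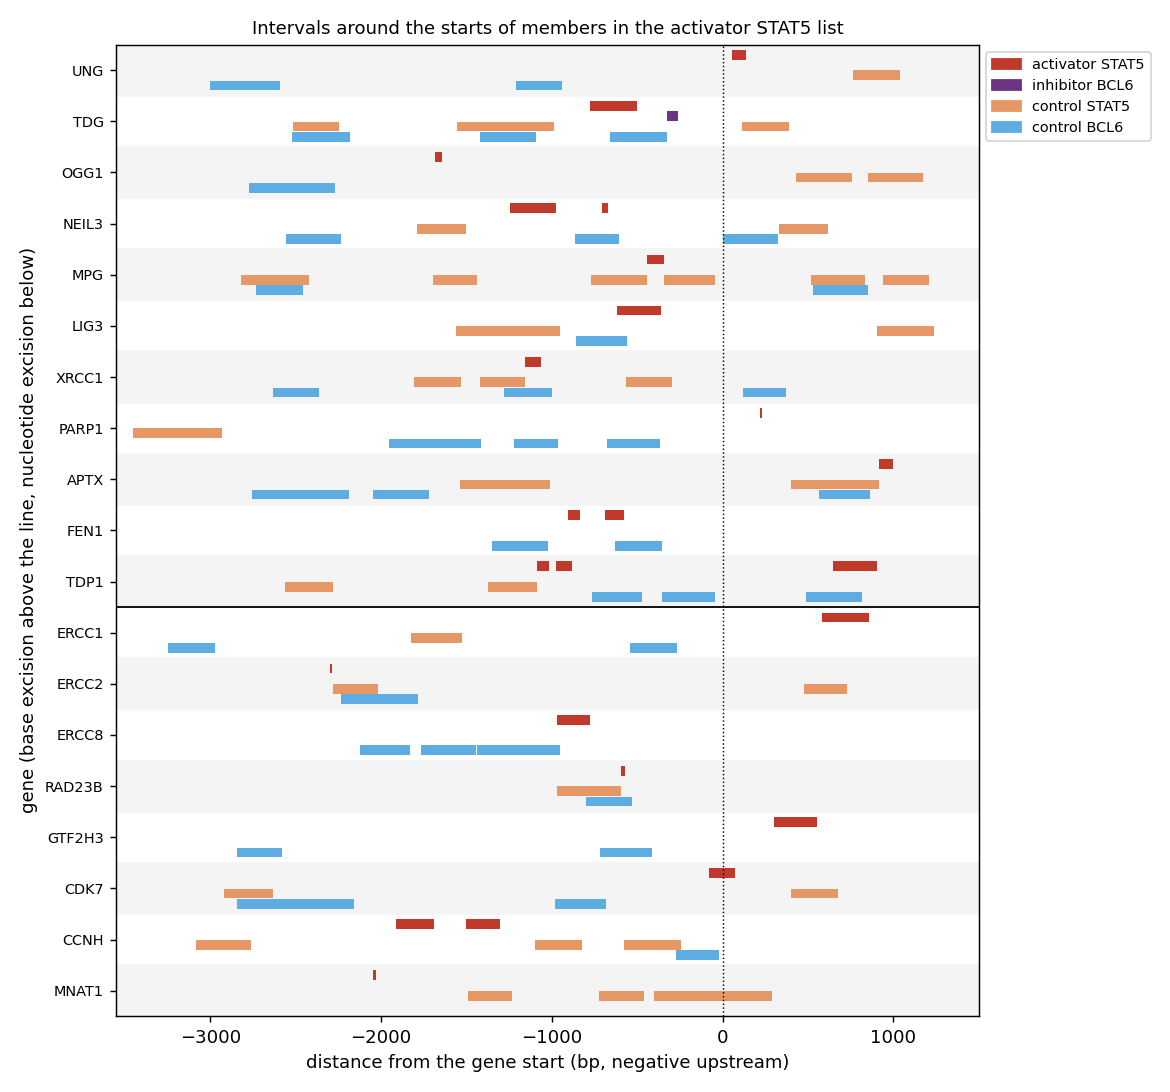
Intervals around the gene start (x axis, bp, negative upstream) of the 19 members in the activator STAT5 list (rows), coloured by list; intervals under 12 bp are drawn 12 bp wide. At TDG a control BCL6 peak is overlapped by the activator STAT5 interval and adjoined downstream by the single inhibitor BCL6 interval, and the CDK7 interval is the one activator STAT5 interval across a start; the control STAT5 peak beyond the APTX interval is not drawn, as it is not listed under APTX.

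Activator STAT5 intervals shared at least 1 bp with a control BCL6 peak at 6 base excision genes (TDG, NEIL3, LIG3, XRCC1, FEN1 and TDP1) and at 2 nucleotide excision genes (ERCC8 and RAD23B), 27.3% and 9.09% of each pathway, beside 7.12% of protein-coding genes. By interval this was 8 of 24 (33.3%), beside 25.6% of the list. The overlap covered the whole interval at NEIL3, XRCC1 and RAD23B, 67.3% of it at TDP1, 58.1% at TDG, 44.4% at FEN1, 22.7% at LIG3 and 10.3% at ERCC8. In the list of shared intervals each of the 8 had a control BCL6 value in 1 library alone, the first at TDG, NEIL3 and LIG3 and the second at the other 5. Without the second control BCL6 library the count is 3 base excision genes and 0 nucleotide excision genes. Without the first it is 3 and 2.

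No activator STAT5 interval shares a base with a control STAT5 peak, so contact was read from the gap between them. An interval touched a control STAT5 peak, with 0 bp between, at 4 of 15 base excision intervals (MPG, XRCC1, APTX and the first of TDP1; 26.7%) and at 1 of 9 nucleotide excision intervals (RAD23B; 11.1%), 5 of 24 together (20.8%), beside 18.9% of the list. MPG and APTX were in contact on both sides, as were 0.847% of all activator STAT5 intervals. For 4 of the 19 genes (21.1%: MPG, XRCC1, APTX and RAD23B) every activator STAT5 interval touched a control STAT5 peak, beside 16.2% of the protein-coding genes listed. The other 15 genes, 8 in base excision and 7 in nucleotide excision repair, had an interval with no such contact (34.1% of 44, beside 20.7% of protein-coding genes). Touching member intervals were 23 to 103 bp wide (median 78 bp, n = 5) and the others 2 to 279 bp (median 156 bp, n = 19); in the whole list the medians were 89 and 157 bp. Every control STAT5 peak that was touched had a value in 1 library alone. Without the first control STAT5 library 2 base excision intervals remained in contact, and without the second 4 did; the RAD23B contact was lost without the second. Control peaks beyond the windows of listed gene starts are not in the lists, so a missing contact means no listed neighbour.

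In total 13 of the 24 intervals (54.2%, beside 60.6% of the list) neither touched a control STAT5 peak nor overlapped a control BCL6 peak: 6 in base excision repair (at UNG, OGG1, NEIL3, PARP1, FEN1 and TDP1) and 7 in nucleotide excision repair (at ERCC1, ERCC2, GTF2H3, CDK7, CCNH with 2, and MNAT1). FEN1, ERCC8 and GTF2H3 had no control STAT5 interval under their symbol at all, 3 of 19 genes (15.8%), beside 11.9% of the protein-coding genes in the activator STAT5 list.

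By position, 11 of 15 base excision and 5 of 9 nucleotide excision intervals had their midpoint within 1000 bp of the gene start (73.3% and 55.6%), beside 49.4% of activator STAT5 intervals at protein-coding genes. Midpoints lay upstream at 11 of 15 and 7 of 9, beside 76.9%. Interval widths had medians of 92 and 195 bp in the 2 pathways, on ranges of 2 to 279 and 2 to 273 bp that overlap almost entirely. An interval was also listed at another gene in 8 of 15 and 2 of 9 cases (53.3% and 22.2%), beside 14.0% of the intervals at protein-coding genes. The neighbours whose starts share the interval were RHBDF1 at MPG, DNAJA1 at APTX, TMEM258 and MIR611 at FEN1, EFCAB11 at TDP1, an unnamed gene at XRCC1, NDUFAF2 at ERCC8 and EIF2B1 at GTF2H3. Such an interval is assigned to both genes in the lists and cannot be told apart between them.

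Both libraries of a control group had a value at the same interval in 16 genes, and 0 of the 44 genes had one with both antibodies, beside 2.42% of protein-coding genes, so the count of 0 is near the background. With STAT5 they were TDG, MUTYH, MPG, POLB, LIG3, XPA, ERCC6 and MNAT1. With BCL6 they were UNG, OGG1, PARP1, PARP2, APTX, ERCC5, ERCC8 and CDK7. In each list this was 5 base excision and 3 nucleotide excision genes, 8 of the 37 members listed with STAT5 and 8 of the 36 listed with BCL6, beside 18.3% and 16.7% of the protein-coding genes listed. The highest paired values were 4 and 4 at MNAT1 with STAT5 and 3 and 4 at CDK7 with BCL6 (chromosome 5, 68527855 to 68528539, -2846 to -2162 bp). Counted over intervals, 8 of 74 control STAT5 (10.8%) and 8 of 79 control BCL6 intervals (10.1%) at members had a value in both libraries, beside 9.34% and 9.19% of each list. Most others were a value of 2 in 1 library and 0 in the other: 51 of 74 (68.9%, beside 66.5%) and 52 of 79 (65.8%, beside 66.9%). A control STAT5 interval overlapped a control BCL6 peak in 10 of 44 cases in base excision repair (22.7%) and 13 of 30 in nucleotide excision repair (43.3%), beside 30.2% of the list. These lay at 7 and 11 genes. The share over all genes was not computed, so neither count can be told apart from that of genes in general. ERCC5, whose nuclease cuts on one side of the lesion, had 2 such intervals, and so did ERCC4, TDG, MUTYH and MPG. Both ERCC4 intervals fell on the same control BCL6 peak, at chromosome 16, 14012210 to 14012522.

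Among 29 further genes of both pathways (gap-filling polymerases and their clamp loaders, RPA, the CUL4 ligase and other partners), 11 were in the activator STAT5 list (37.9%, beside the 24.7% of protein-coding genes given above). They were APLF, RFC1, POLD1, POLD2, POLD3, POLD4, POLE2, POLE4, RPA1, UVSSA and POLK. All 4 subunits of polymerase delta (POLD1 to POLD4), which fills gaps in both pathways, were thus present. At each interval of these subunits at least 1 library had the lowest value of 2, and a POLD4 interval was 1 bp wide. POLK, a polymerase that also fills gaps in nucleotide excision repair, had the highest values, 5 and 11 at chromosome 5, 74806983 to 74807477, where the interval touched a control STAT5 peak. Of these genes' 15 activator intervals 3 were in contact, at POLE4, POLK and RPA1, beside 18.9% of the list. APLF, a factor that binds poly(ADP-ribose) at breaks, had 5 and 5 over 596 bp at chromosome 2, 68694824 to 68695419, the widest interval of the activator STAT5 list. APLF was also the one further gene in the inhibitor BCL6 list (1 of 29, 3.45%, beside 3.14% of protein-coding genes), with 3, 4 and 3 at 68693746 to 68693846, 20 bp from a control BCL6 peak and 15 bp over a control STAT5 peak. RFC1, POLD1, POLD3 and POLD4 overlapped a control BCL6 peak (4 of 29, 13.8%, beside 7.12% of protein-coding genes).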

How the data were processed

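Intervals and whole-number values per library were taken as deposited, and the members and gene lists were chosen with earlier results of these data known. The values are read as counts of reads in the authors' deposited lists, whose headers name libraries but not the quantity. CASAVA 1.8.2 and Bowtie 0.12.7 on GRCh37 are named without roles, per the submitters' processing notes; how peaks were called is not stated there. The authors' deposited lists also give each interval's width and signed distance from an Ensembl gene start, other measures in bp; that distance was tested on every interval and refers to the lower coordinate, so both edges were recomputed along the gene's strand. Library columns were matched to samples by condition and library number in the titles.

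Members were matched by symbol. An interval near several gene starts counted once per gene and once per list. Overlap meant at least 1 shared bp and contact a gap of 0 bp to the nearest listed peak; the gap routine was tested on simulated intervals. Shares are set beside those over 20056 protein-coding and 59778 total symbols of a RefSeq table (GRCh38.p14, names only). These symbols were matched as written, so a gene listed only under an older name counted there as without an interval. Promoter sequences are RefSeq's. Every member was named with full values if it had a treated interval. Python 3.11.15, pandas 2.3.3, numpy 2.4.6 and scipy 1.17.1 were used. Of the further pathway genes listed at the outset, 1 is not reported here.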

Additional observations from a re-analysis of the deposited data

How the results depend on the processing

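No paired analysis was possible because library numbers are unique in the titles and no test was made. Over 14 counts of members or contacts and 82 alternatives, 57 stayed within 1.5 times the main count and 25 moved further. The cause was not tested. The 57 include alternatives that could not have moved a count, so their number is not a measure of stability. Among these were leaving a library out of a treated list and filters applied to a count of 0. The 50 bp width filter also could not change the control lists, whose intervals are at least 250 bp wide. Asking every library for 3 or more left 0 of 11 base excision and 0 of 8 nucleotide excision genes in the activator STAT5 list (beside 5.01% of protein-coding genes) and 0 of 1 in the inhibitor BCL6 list. Asking this of any 1 library left 7 and 6 genes for activator STAT5 and 0 for inhibitor BCL6 (chosen for treated lists after seeing the data), 7 and 7 of 20 and 17 in the control STAT5 list, and 7 and 10 of 19 and 17 in the control BCL6 list. A value in both control libraries left 5 and 3 in each control list. Within 1000 bp of the start, nucleotide excision genes numbered 5 in the activator STAT5 and 11 in the control STAT5 list. With intervals of at least 50 bp (chosen after seeing the data), 5 nucleotide excision genes stayed in the activator STAT5 list; dropping intervals in contact with same-antibody control peaks (likewise) left 0 in the inhibitor BCL6 list. Covering at least 50% of the activator interval left 1 nucleotide excision gene on control BCL6 peaks, and a gap of up to 100 bp gave 2 nucleotide excision contacts. Leaving out 1 library at a time gave 15 to 15 (control STAT5) and 14 to 17 (control BCL6) base excision genes, 11 to 14 and 13 to 15 nucleotide excision genes, 3 to 3 and 0 to 2 shared genes, and 2 to 4 and 0 to 1 contacts. Leaving out a library could not change the treated lists (11 and 8 genes in activator STAT5, 1 and 0 in inhibitor BCL6), because every listed interval has a value in each. How far these counts depend on a single library could therefore not be assessed. A value in both control libraries does not apply to treated lists. With most values at 2 and depth not given, single intervals carry little precision.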
